A study of Rattus norvegicus with 12 samples.

Results

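The genes *Il1b*, *Il6*, *Il18*, *Ccl2*, *Tgfb1* and *Icam1* encode inflammatory cytokines, a chemokine, a growth factor and an adhesion molecule, and their RNA was followed in the degenerating retina of the RCS rat. They were chosen by Ensembl identifier and chromosome, and 6 of the 32883 genes in the deposited count files met the rule. Whole retinas of RCS rats were sequenced at p21 and p60 (postnatal days 21 and 60), with 3 libraries for each of 4 groups. The WT groups were labelled as males of genotype RCS-p+, and the athymic groups were labelled as females of genotype RCS-p+/Foxn1mu, where *Foxn1* is needed to form a thymus and thus T cells. All animals were RCS rats, whose *MerTK* mutation impairs the phagocytosis of rod outer segments, and no retina without this mutation was analysed here, so aging and degeneration cannot be told apart. Line and labelled sex coincide and cannot be told apart either. The sources used here do not say whether a library was made from 1 retina or a pool, and p-values measure the spread between these libraries.

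Interleukin-1β and interleukin-18 are made as inactive precursors, which caspase-1 cleaves within inflammasomes, and interleukin-1β acts through NF-κB to induce further cytokines. Interleukin-6 signals through gp130 and STAT3. The chemokine CCL2 draws monocytes into tissue, TGF-β1 restrains immune activation and is known to maintain the resting state of microglia, and ICAM-1 on endothelial and glial cells is bound by the β2 integrins of leukocytes. In the retina, these genes are known from microglia, Müller glia and vessels. Retinal cell types were not checked by their markers, since in these files only these 6 identifiers are paired with gene names. In RNA from whole tissue, a changed share of a cell type and changed RNA per cell cannot be told apart, for rises and falls alike.

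The transcripts of *Il1b* and *Il6* were also targets of the study's quantitative PCR, which was run in rats given a lipoxin analog or vehicle. Those measurements came from another age and other animals, and no comparison with the counts was made. The primers show which transcripts that assay was built for, and they were copied from the study's primer table, whose heading gives the reverse primers in the 3′ to 5′ direction. The direction of the reverse primers was not checked here. Capitals mark the bases that match the end of the RefSeq (GRCr8) window around the start of *Il6*, from base 36 to base 50 after the start.
Il1b forward: cacctctcaagcagagcacag
Il1b reverse: gggttccatggtgaagtcaac
Il6 forward: TCAACTCCATCTGCCcttcag
Il6 reverse: aaggcaactggctggaagtct
The *Il6* forward primer therefore begins 36 bases after the RefSeq start and runs in the direction of the transcript.

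The files place the genes by the coordinates of Rnor_6.0, the build that the submitters' processing notes name. *Icam1* (ENSRNOG00000020679) lies on chromosome 8 from 22035256 to 22047059 and *Il18* (ENSRNOG00000009848) on chromosome 8 from 54993859 to 55016299. *Tgfb1* (ENSRNOG00000020652) lies on chromosome 1 from 82480195 to 82497199, *Il1b* (ENSRNOG00000004649) on chromosome 3 from 121876263 to 121882726, *Ccl2* (ENSRNOG00000007159) on chromosome 10 from 69412017 to 69413870, and *Il6* (ENSRNOG00000010278) on chromosome 4 from 3043231 to 3047807. RefSeq places all 6 symbols on the same chromosomes in GRCr8. Counts were taken over annotated exons, whose summed length was 2643 bases for *Icam1*, 2140 for *Tgfb1*, 1396 for *Il1b*, 1045 for *Il6*, 1007 for *Il18* and 835 for *Ccl2*. Exons of *Il18* share 92 bases with ENSRNOG00000049470, a gene on the other strand that had 0 to 7 counts per library. Whether counting used the strand is not given in the sources used here, so the *Il18* counts are uncertain to that extent. The other 5 genes share no exonic base with another gene in the files.

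The total counts of the libraries were between 13852516 and 16725355. Some libraries stood apart before any of these genes was considered. Summed over the 48 genes of the Y chromosome, libraries labelled male had 229.2 to 323 counts per 1000000 (CPM), whereas libraries 4, 5 and 22, labelled female, had 328, 316 and 269 CPM and thus went against their sex label. The other libraries labelled female, 6, 23 and 24, had 8.79, 23.2 and 16.1 CPM. Library 4 had 110 genes with at least 10 counts and at least 2 times the level of every other p21 library, against 8 to 18 in the other p21 libraries, and library 19 had 62 against 3 to 16 in the other p60 libraries. Only genes past a filter on low counts were included in these numbers. Results are also given without libraries 3, 4, 5 and 22, and without libraries 4, 19 and 24. Both sets were chosen from earlier results of these data, and the values above do not set libraries 3 and 24 apart: library 3 had the lowest Y level of the libraries labelled male, and library 24 had 16 genes above the other p60 libraries and a Y level that fits its label.

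Between p21 and p60, *Icam1*, *Il18* and *Tgfb1* rose. No change of *Il1b*, *Ccl2* or *Il6*, which had few counts, was detected over all libraries. Levels are given as normalized CPM, which are CPM after scaling the libraries by the TMM (trimmed mean of M-values) method. Over all 12 libraries, 4 of the 6 genes passed the filter on low counts, and 3 of these were higher at p60 by the quasi-likelihood test of edgeR, with p-values adjusted by Benjamini-Hochberg over all genes and a threshold of 0.05. Of all 16069 genes tested, 62.0% differed between the ages, 31.7% being higher and 30.3% lower at p60, so a significant rise was common in these retinas. With scaling to total counts alone, 7357 genes were higher and 2904 lower, in place of 5096 and 4873, and the median of all genes moved to 0.20, while the same 3 genes were higher. The median log2 fold change of the 4 genes was 1.16, against 0.02 over all genes tested. This median leaves out *Ccl2* and *Il6*, which did not pass the filter, and *Il1b* among the 4 had -0.04.

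**Figure D1:**
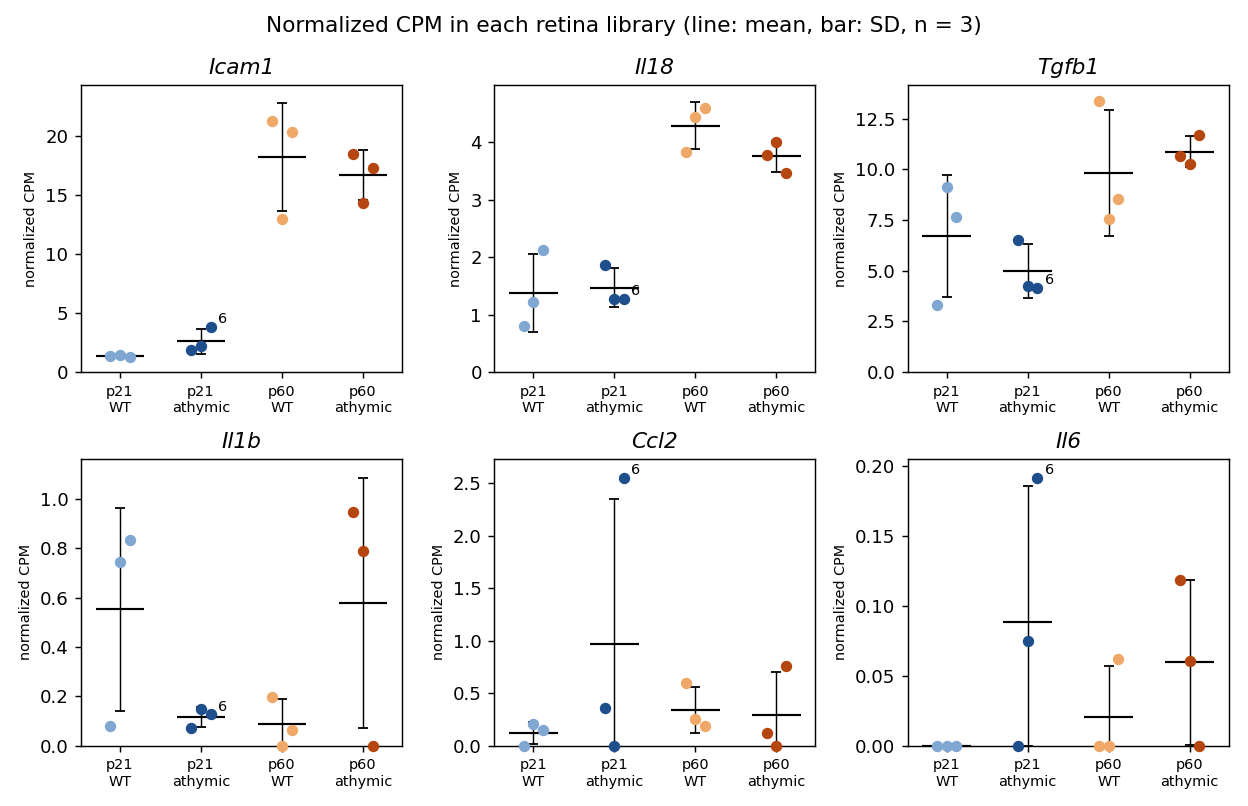
Normalized CPM (vertical axes, linear and scaled separately for each gene) in each of the 12 libraries, by age and line. Points are libraries, lines the mean and bars the SD of 3 libraries, drawn no lower than 0, and library 6 is marked. *Icam1* and *Il18* were higher in every p60 library than in every p21 library, *Tgfb1* overlapped between the ages, and *Il1b*, *Ccl2* and *Il6* stayed below 3 normalized CPM in all libraries. Of all genes tested, 19.8% were higher in every p60 library than in every p21 library.

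*Icam1*, the adhesion molecule, had the largest change over all libraries of the 4 genes tested. Raw counts at p21 were 17, 21 and 17 in the WT libraries 1, 2 and 3 and 26, 29 and 60 in the athymic libraries 4, 5 and 6. At p60, they were 323, 204 and 327 in the WT libraries 19, 20 and 21 and 313, 236 and 274 in the athymic libraries 22, 23 and 24. The ages did not overlap, a separation that 40.4% of the genes tested had, 19.8% of the genes tested with p60 higher. The level rose from 1.99 ± 0.966 to 17.5 ± 3.30 normalized CPM (SD, n = 6 libraries per age). On the log2 scale the rise was 3.15 (standard error, SE, 0.234, adjusted p = 4.77e-08 by edgeR), which is 8.87-fold with a 95% confidence interval of 6.26 to 12.6. *Icam1* ranked 26 from the top by log2 fold change among the 16069 genes tested.

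The rise of *Icam1* was found in each line alone. In the WT line, the level went from 1.35 ± 0.0690 to 18.2 ± 4.58 normalized CPM (SD, n = 3 each), a log2 fold change of 3.74 (SE 0.235, adjusted p = 2.04e-06 by edgeR). In the athymic line, it went from 2.62 ± 1.06 to 16.7 ± 2.13 normalized CPM (SD, n = 3 each), a log2 fold change of 2.65 (SE 0.251, adjusted p = 5.42e-05 by edgeR). The difference of the age change between the lines was -1.08 on the log2 scale (SE 0.376), with an unadjusted p of 0.013 and an adjusted p of 0.368 by edgeR, and did not pass the threshold. The athymic minus WT difference at p21 was 0.96 (95% interval 0.20 to 1.72, adjusted p = 0.31 by edgeR), and at p60 it was -0.12 (interval -0.57 to 0.32, adjusted p = 0.896). Library 6 had the highest p21 level, with 3.83 normalized CPM against 2.17 in the next p21 library. It was also the only p21 library with a low Y level. The size of the line difference varied with the libraries used. Without library 6, the interaction was -0.71 and the p21 difference was 0.58, and the rise over the remaining libraries was 3.43. Without library 4, the interaction was -1.31 and the p21 difference 1.16. Without libraries 3, 4, 5 and 22 they were -1.69 and 1.47 (adjusted p = 0.415 and 0.0628 by edgeR), but there library 6 was the only athymic library at p21, so the athymic arm had no replicate and was assumed to vary like the other libraries. None of these passed the threshold. Without libraries 3, 4, 5 and 22 the rise was 2.97 over both lines and 2.03 in the athymic line alone (adjusted p = 0.00451 by edgeR), where library 6 was the only p21 library, and without libraries 4, 19 and 24 it was 3.03. In 21 other fits of the rise over all libraries, the log2 fold change was between 2.97 and 3.43 with an adjusted p of at most 7.49e-05.

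*Il18*, the inflammasome-dependent cytokine, rose 2.81-fold. Raw counts at p21 were 10, 18 and 28 in the WT libraries and 26, 17 and 20 in the athymic libraries. At p60, they were 58, 70 and 74 in the WT libraries and 64, 66 and 55 in the athymic libraries. The ages did not overlap, as for 19.8% of the genes tested with p60 higher, and within each age the lines did. The level went from 1.42 ± 0.480 to 4.02 ± 0.429 normalized CPM (SD, n = 6 libraries per age), a log2 fold change of 1.49 (SE 0.209, adjusted p = 2.59e-05 by edgeR). The 95% confidence interval of the fold was 2.06 to 3.84. The rise passed the threshold in the WT line, with a log2 fold change of 1.63 (SE 0.33, adjusted p = 0.00275 by edgeR), and in the athymic line, with 1.35 (SE 0.24, adjusted p = 0.0018 by edgeR). The difference between these changes was -0.28 (95% interval -1.18 to 0.62, adjusted p = 0.885 by edgeR), and it was -0.74 to -0.04 in fits without 1 library. Over both lines, the rise was 1.88 without libraries 3, 4, 5 and 22 and 1.66 without libraries 4, 19 and 24, past the threshold in both. Without the former set, which leaves 1 athymic library at p21, the athymic change was 1.53 (adjusted p = 0.0599 by edgeR) and no longer passed the threshold.

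*Tgfb1*, the regulatory growth factor, was the most abundant of the 6 genes at p21 and had the smallest of the significant rises. Raw counts at p21 were 42, 135 and 101 in the WT libraries and 91, 57 and 65 in the athymic libraries. At p60, they were 203, 119 and 137 in the WT libraries and 180, 169 and 186 in the athymic libraries. Library 2 at p21 lay above the p60 libraries 20 and 21 in normalized CPM, so the ages overlapped, and this overlap came from the WT line. The level went from 5.84 ± 2.29 to 10.4 ± 2.12 normalized CPM (SD, n = 6 libraries per age), a log2 fold change of 0.83 (SE 0.231, adjusted p = 0.00627 by edgeR). This is 1.78-fold with a 95% confidence interval of 1.26 to 2.52. The rise was 0.90 without libraries 3, 4, 5 and 22 (adjusted p = 0.0442 by edgeR) and 0.73 without libraries 4, 19 and 24 (adjusted p = 0.0371).

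In the athymic line, *Tgfb1* rose with a log2 fold change of 1.13 (SE 0.19, adjusted p = 0.00134 by edgeR). In the WT line, the log2 fold change was 0.54 (95% interval -0.23 to 1.31, adjusted p = 0.217 by edgeR), which did not pass the threshold. The difference between the lines was itself not significant, with an interaction of 0.59 (SE 0.442, adjusted p = 0.725 by edgeR). It was 0.28 without library 2, 0.88 without library 1 and 1.06 without libraries 4, 19 and 24, with adjusted p of 0.921, 0.434 and 0.442 by edgeR. In the WT line the value depended on single libraries. The log2 fold change was 0.23 without library 1, 0.25 without library 19 and 0.84 without library 2, and it did not pass the threshold in any of the 6 fits without 1 WT library.

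In the WT line, 2 of the 3 genes tested were higher at p60, where 51.4% of all 15412 genes differed, 25.6% higher and 25.8% lower. In the athymic line, 3 of 3 were higher, where 49.9% of all 15507 genes differed, 25.3% higher and 24.6% lower. None of the genes tested differed between the lines at p21, where 0% of 15225 genes did by edgeR, 1936 had an unadjusted p under 0.05 and 140 differed by DESeq2. At p60, none of them differed either, where 0.0193% of 15557 genes did by edgeR (0.00643% lower in the athymic line) and 106 genes differed by DESeq2. None of the 4 genes tested had a significant interaction of age and line, which 0.00622% of all genes had by edgeR. By DESeq2, none of the genes tested differed between the lines or had an interaction either, and 146 of all genes had an interaction. The edgeR counts over all genes depended on single libraries. The 1 gene with an interaction became 138 genes without library 1, 92 without library 24 and 8 without library 6, and the 0 genes between the lines at p21 became 85 without library 1 and 18 without library 3. Without libraries 3, 4, 5 and 22, they became 1257 genes, from a fit in which library 6 was the only athymic library and had no replicate. The 3 genes at p60 became 61 without library 24, 26 without library 22 and 0 without library 20, 21 or 23, and 179 without libraries 4, 19 and 24.

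**Figure D2:**
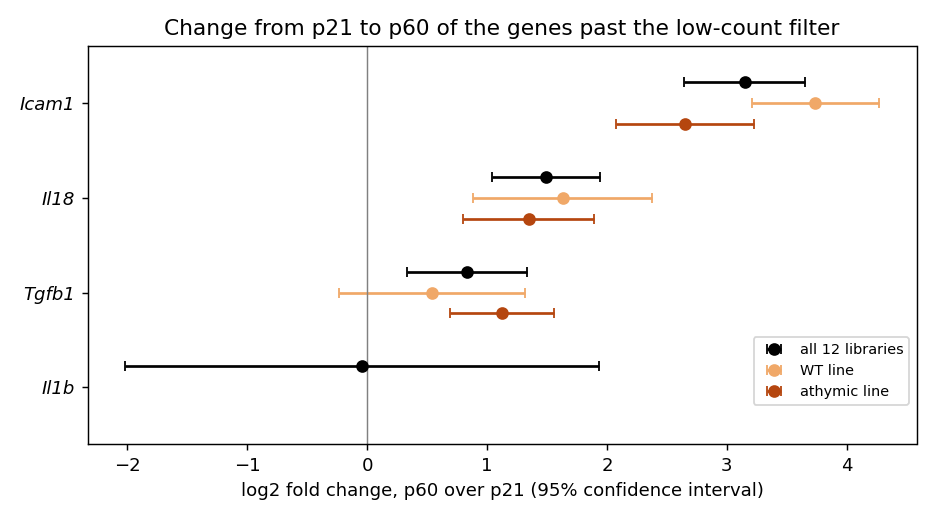
The log2 fold change from p21 to p60 (horizontal axis) with its 95% confidence interval for the 4 genes that passed the low-count filter, over all 12 libraries with line as a covariate and in each line alone. *Icam1* and *Il18* were above 0 in each fit, the interval of *Tgfb1* in the WT line reached from -0.23 to 1.31, and *Il1b*, fitted only over all libraries, had an interval from -2.02 to 1.93.

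*Il1b*, the inflammasome cytokine that was also a qPCR target, was near the limit of detection. Raw counts at p21 were 1, 11 and 11 in the WT libraries and 1, 2 and 2 in the athymic libraries. At p60, they were 3, 0 and 1 in the WT libraries and 16, 13 and 0 in the athymic libraries. At least 10 counts were found in 4 of the 12 libraries, of which 2 and 3 are p21 WT and 22 and 23 are p60 athymic libraries. Summed over the 6 libraries of an age, 28 counts were found at p21 (95% Poisson interval 18.6 to 40.5) and 33 at p60 (22.7 to 46.3), where these intervals cover counting error only. The log2 fold change over all libraries was -0.04 (SE 0.918, adjusted p = 0.972 by edgeR), with a 95% interval from -2.02 to 1.93, which spans 0.247-fold to 3.82-fold.

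The order of the ages in *Il1b* counts was not the same in the lines. The WT libraries summed to 23 counts at p21 and 4 at p60, and the athymic libraries to 5 counts at p21 and 29 at p60. Ages overlapped within each line, since library 1 had 1 count and library 19 had 3, and library 24 had none. The interaction of age and line was 4.85 on the log2 scale (SE 1.59), with an unadjusted p of 0.00939 and an adjusted p of 0.329 by edgeR, and it did not pass the threshold. It was 6.09 without library 19, 6.42 without libraries 4, 19 and 24 and 3.77 without libraries 3, 4, 5 and 22, with adjusted p of 0.323, 0.106 and 0.663 by edgeR. With all libraries, the gene did not pass the filter in either line alone. Without a filter, the log2 fold change was -2.59 in the WT line (adjusted p = 0.0492 by edgeR) and 2.25 in the athymic line (adjusted p = 0.107). In a model of all 4 groups with the filter, it was -2.60 in the WT line (adjusted p = 0.0753 by edgeR) and 2.25 in the athymic line (adjusted p = 0.105), and neither passed the threshold. The gene passed the filter in some fits without 1 library. The change was then -3.08 in the WT line without library 1 (adjusted p = 0.0147 by edgeR) and -3.83 without library 19 (adjusted p = 0.0319), and 2.80 in the athymic line without library 24 (adjusted p = 0.00456). Libraries 1, 19 and 24 were the ones in which the ages overlapped, so these fits leave out the counts that went against the difference. They also kept both libraries of the line with at least 10 counts, through which the gene passed the filter. Their adjusted p-values are therefore no support for a change. In the athymic line, the gene also passed the filter but not the threshold without library 4 (2.00), 5 (2.44) or 6 (2.32), with adjusted p of 0.238, 0.182 and 0.200 by edgeR, and without libraries 3, 4, 5 and 22 (1.57, adjusted p = 0.62). Leaving out libraries 4, 19 and 24 together removes the same counts of libraries 19 and 24, and the change was then 2.57 in the athymic line (adjusted p = 0.0123 by edgeR). That fit also kept libraries 22 and 23, so its adjusted p is no support either. Of the athymic libraries with 16 and 13 counts, library 22 was one that went against its sex label and library 23 was not.

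With all libraries, *Ccl2*, the monocyte chemokine, did not pass the filter on low counts. Over both lines, it passed in fits without 1 library, unless library 6 or 24 was left out. There the log2 fold change was -1.035 (without library 19) to -0.13 (without library 23) and never passed the threshold. Raw counts at p21 were 0, 3 and 2 in the WT libraries and 5, 0 and 40 in the athymic libraries. At p60, they were 9, 4 and 3 in the WT libraries and 2, 0 and 12 in the athymic libraries. The WT libraries summed to 5 counts at p21 and 16 at p60, and the athymic libraries to 45 and 14. Library 6 held 40 of the 50 counts at p21. The level was 0.544 ± 0.994 normalized CPM at p21 and 0.318 ± 0.294 at p60 (SD, n = 6 libraries per age; two-sided exact permutation test, p = 0.864). The difference of p60 minus p21 was -0.226 normalized CPM with all libraries and 0.176 without library 6 (exact permutation test, p = 0.286), so its sign depended on that library. It was -0.561 without libraries 3, 4, 5 and 22 and -0.442 without libraries 4, 19 and 24 (exact permutation test, p = 0.643 and 0.841). Library 6 was also the highest p21 library for *Icam1* and *Il6*, whereas for *Il18*, *Tgfb1* and *Il1b* it lay within the range of the others. In library 6, 18 genes past the filter had at least 2 times the level of every other p21 library. *Ccl2* did not pass the filter and was not counted among them. Library 4 had 110 such genes, and the remaining p21 libraries had 8 to 15. At p21, a low Y level was found in library 6 alone, with 8.79 CPM. What part a difference of library 6 had in these values was not tested.

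*Il6*, the other qPCR target, was almost absent from the counts. Raw counts at p21 were 0 in all 3 WT libraries and 0, 1 and 3 in the athymic libraries. At p60, they were 0, 0 and 1 in the WT libraries and 2, 1 and 0 in the athymic libraries. In total, 8 counts were found among 179522141, and 7 of the 12 libraries had none. Each age summed to 4 counts (95% Poisson interval 1.09 to 10.2), and the levels did not differ detectably (0.0444 ± 0.0781 against 0.0402 ± 0.0487 normalized CPM, SD, n = 6; two-sided exact permutation test, p = 0.848). A count of 0 in 43509113, as in the WT libraries at p21, allows up to 3 counts, or 0.0690 CPM, by the floor of 3 counts used here, and the two-sided 95% Poisson interval reaches 3.69 counts, or 0.0848 CPM. No fold change is given, and a change of *Il6* between the ages was not detectable at this depth.

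**Figure D3:**
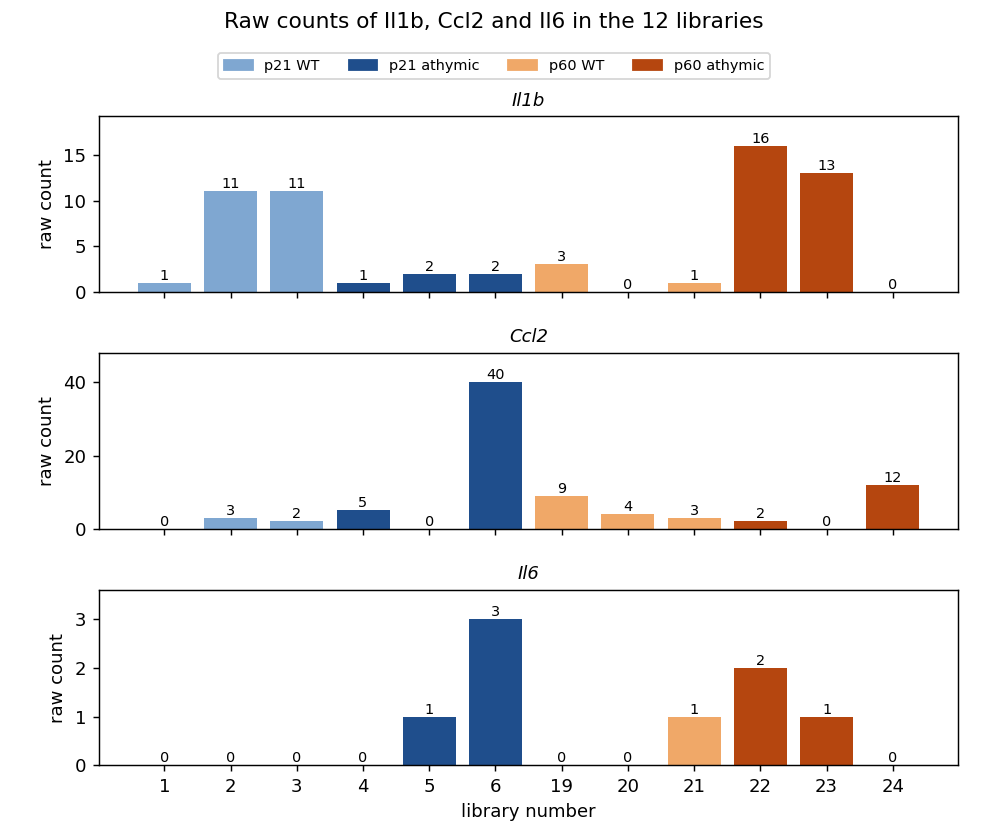
Raw counts (vertical axes, linear) of *Il1b*, *Ccl2* and *Il6* in each library, named by its number and coloured by age and line, with the count above each bar. *Il1b* reached at least 10 counts in libraries 2, 3, 22 and 23, *Ccl2* had 40 counts in library 6 and at most 12 elsewhere, and *Il6* had at most 3.

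Levels of different genes were compared per kilobase of exon. At p21, the order was *Tgfb1* with 2.73 ± 1.07 normalized CPM per kilobase, *Il18* with 1.41 ± 0.477, *Icam1* with 0.751 ± 0.366, *Ccl2* with 0.652 ± 1.19, *Il1b* with 0.239 ± 0.254 and *Il6* with 0.0425 ± 0.0747 (SD, n = 6). The ranges of each pair of neighbours in this order overlapped. At p60, the order was *Icam1* with 6.60 ± 1.25, *Tgfb1* with 4.84 ± 0.989, *Il18* with 3.995 ± 0.426, *Ccl2* with 0.381 ± 0.352, *Il1b* with 0.238 ± 0.304 and *Il6* with 0.0385 ± 0.0466 (SD, n = 6). Per kilobase, *Icam1* thus moved from the third place at p21 to the first at p60, although its range at p60 (4.90 to 8.06) overlapped that of *Tgfb1* (3.53 to 6.26). At p60, the lowest *Il18* library, with 3.44, was above the highest *Ccl2* library, with 0.906, and the genes thereby fell into 3 with a clear signal and 3 with little.

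**Figure D4:**
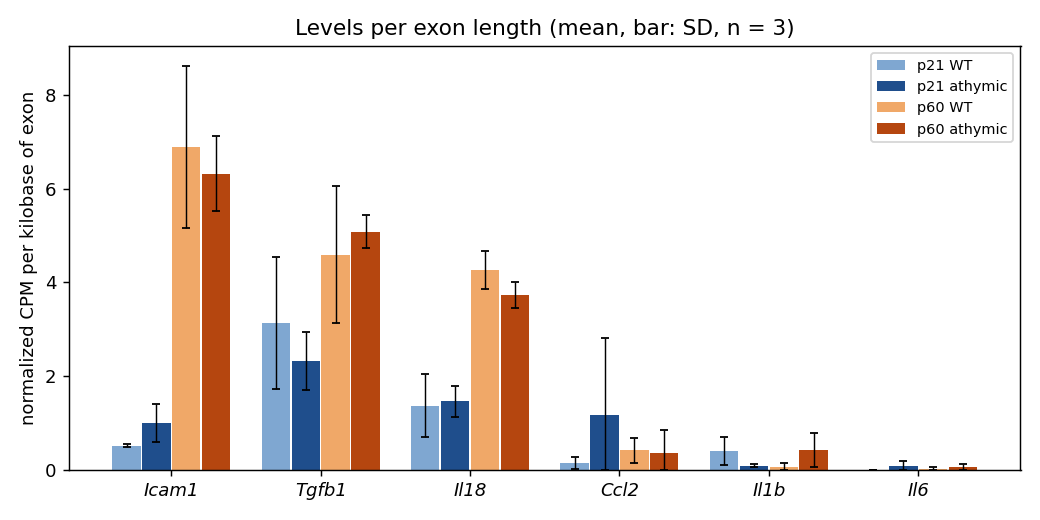
Normalized CPM per kilobase of exon (vertical axis, linear from 0) of the 6 genes in the 4 groups. Bars are means and error bars the SD of 3 libraries, drawn no lower than 0. At p60, *Icam1*, *Tgfb1* and *Il18* stood between 3.73 and 6.89 in both lines, and *Ccl2*, *Il1b* and *Il6* below 0.5.

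The 250 bases before the start of transcription in RefSeq (GRCr8) are shown for *Icam1* and *Il18*, whose ages did not overlap, and for *Il6*, the gene with the fewest counts. Capitals mark 3 patterns, searched on both strands: GGANNNTCC, the outer bases of many NF-κB sites, TTCNNNGAA, the common form of STAT sites, and the TATA box TATAAA. The letters of the patterns were chosen after these sequences had been read. *Il6* is on the plus strand in Rnor_6.0 and on the minus strand in GRCr8.
Icam1, chr8:27829595-27829844, plus strand: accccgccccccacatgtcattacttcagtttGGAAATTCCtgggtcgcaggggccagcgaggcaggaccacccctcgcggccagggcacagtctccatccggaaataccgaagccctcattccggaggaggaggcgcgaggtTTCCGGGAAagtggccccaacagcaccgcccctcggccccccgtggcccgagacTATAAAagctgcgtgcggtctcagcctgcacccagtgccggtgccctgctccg
Il18, chr8:59801822-59802071, plus strand: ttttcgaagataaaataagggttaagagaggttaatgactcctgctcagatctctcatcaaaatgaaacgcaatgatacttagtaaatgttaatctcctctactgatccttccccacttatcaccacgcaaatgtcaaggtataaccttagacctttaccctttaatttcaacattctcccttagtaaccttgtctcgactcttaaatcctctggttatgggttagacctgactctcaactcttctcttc
Il6, chr4:5894576-5894825, minus strand: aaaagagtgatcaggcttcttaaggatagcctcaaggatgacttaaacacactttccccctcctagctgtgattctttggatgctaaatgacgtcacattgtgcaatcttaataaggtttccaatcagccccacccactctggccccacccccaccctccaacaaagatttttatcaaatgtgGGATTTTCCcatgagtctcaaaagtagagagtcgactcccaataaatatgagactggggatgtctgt
The *Icam1* window held all 3 patterns, with GGANNNTCC beginning 218 bases, TTCNNNGAA 107 bases and TATAAA 53 bases before the start. The *Il6* window held GGANNNTCC, beginning 67 bases before the start, and the *Il18* window held none of the 3. Of the other genes, *Il1b* had TATAAA beginning 60 bases before the start and *Tgfb1* had none of the 3, and *Ccl2* was not searched. Among all 33469 RefSeq windows of this length, 6.76% held GGANNNTCC, 7.67% held TTCNNNGAA and 12.9% held TATAAA. The patterns are descriptions of the sequence, and GGANNNTCC was found both beside the gene with the largest rise and beside the gene with the fewest counts.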

How the data were processed

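Poly(A)-selected RNA from whole retinas was sequenced as paired-end reads. The authors mapped the reads with STAR (2.5.2b in the submitters' processing notes, with the build Rnor_6.0) and counted them per Ensembl gene with featureCounts, whose version differs between the sources, and they deposited raw counts for each of the 12 libraries without normalization. The strand setting and the treatment of reads with several positions are not given in the sources used here. From the deposited counts, genes were kept with edgeR's filterByExpr (minimum count 10, minimum total 15), libraries were scaled with TMM factors, and all genes were tested with edgeR 4.0.16 in R 4.3.3 by its quasi-likelihood test, with p-values adjusted by Benjamini-Hochberg and a threshold of 0.05. Ages were compared over all libraries with line as a covariate and in each line, lines at each age, and the interaction was tested. Genes below the filter were compared with an exact permutation test (scipy 1.17.1). The edgeR fits were tested on simulated data. Alternatives were DESeq2 1.42.0, other scalings and filters, another model and left-out libraries. The 6 genes, the rule that all 6 be named, and the lists were chosen with earlier results of these data known. Lists of pathway and cell type genes, and scaling to *Gapdh* and *Actb*, were not used here, because 0 of the 32883 identifiers matched the gene table. Of the genes whose pattern over the libraries was most like that of the member with the highest mean count, 2 are given by identifier.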

Additional observations from a re-analysis of the deposited data

Results flagged for a closer look

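Library 6, an athymic library at p21, was far above the other p21 libraries for *Ccl2* and for *Icam1*. For *Ccl2*, it had 2.55 normalized CPM against 0.357 in the next highest p21 library. For *Icam1*, it had 3.83 normalized CPM against 2.17. Among 12 groups of 6 libraries (6 genes at each age), 2 had such a value by Dixon's ratio (0.860 for *Ccl2* and 0.654 for *Icam1*). This ratio is the gap to the next value over the range of the 6 values. Both were in this 1 library and therefore not independent. For normally distributed values, chance alone gives about 1 in 20 groups. Low counts such as those of *Ccl2* need not follow that rate. Library 6 was also the only p21 library with a low Y level, 8.79 CPM against 229.2 to 328 in the others. The cause of its high values was not tested.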

How the results depend on the processing

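The rises of *Icam1*, *Il18* and *Tgfb1* over all libraries passed the threshold in all 21 alternative fits of each. In the athymic line, *Il18* did not pass it without libraries 3, 4, 5 and 22 (log2 fold change 1.53). For *Il1b* over all libraries, the sign reversed with scaling to total counts alone (0.14) and with no line term (0.017), and fits without 1 library gave -0.59 to 0.38. For *Il18* at p21, the difference between the lines was -0.10 without libraries 4, 19 and 24, and -0.17 to 0.54 without 1 library. At p60, leaving out 1 library gave line differences of -0.013 to 0.44 for *Tgfb1* and -0.32 to 0.012 for *Icam1*. For *Il6*, the difference of the ages was 0.0012 normalized CPM with total counts alone, 0.00705 without libraries 4, 19 and 24, -0.0393 without libraries 3, 4, 5 and 22, and -0.0198 to 0.0253 without 1 library, and for *Ccl2* without 1 library it was -0.335 to 0.176. Of the 6 genes, the number that differed between the lines was 1 at p21 without libraries 3, 4, 5 and 22 (*Ccl2*, 4.46, where library 6, with 40 of the 50 p21 counts, was the only athymic library and had no replicate, and 1257 of all 15948 genes differed) and 1 at p60 without libraries 4, 19 and 24 (*Il1b*, 4.49, where libraries 19 and 24 held the counts against the difference, and 179 of all 15696 genes differed). The cause of these changes was not tested. Scaling to *Gapdh* and *Actb* was not run. No paired analysis was possible because the labels give every library its own number. At these depths, a floor of 3 counts was 0.179 to 0.217 CPM per library, and most counts of *Il1b*, *Ccl2* and *Il6* were at or under 3. With at least 10 counts asked of every library, *Il1b* had no value.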

Other observations

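*Icam1* had the highest mean count of the 6 genes, and its log2 normalized CPM was compared with that of 13724 other genes whose log2 CPM averaged 1 or more. The nearest was ENSRNOG00000052424, on chromosome 12 from 49419582 to 49561038, with a Pearson's r of 0.992 over the 12 libraries. This value holds the difference between the ages, and within an age it was 0.916 over the 6 p21 libraries and 0.65 over the 6 p60 libraries. The next was ENSRNOG00000017120, on chromosome 1 from 140998240 to 141087405, with an r of 0.992 over the 12 libraries, 0.859 at p21 and 0.842 at p60. Both genes were chosen for this likeness, so no test is given, and their own log2 fold changes were smaller than that of *Icam1*, with 0.90 and 0.81.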
